A study of Mus musculus with 3 samples.

Results

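The genes described here are 10 members of the Hippo pathway, a signalling route that limits organ growth: the coactivators Yap1 and Wwtr1, the DNA-binding factors Tead1, Tead3 and Tead4, the kinases Lats1 and Lats2, the repressor Vgll4 and the target genes Ctgf and Cyr61. They were found by gene symbol among the 18038 genes of a bulk RNA sequencing table, and all 10 were present. They were measured in 3 heart tissue RNA samples of wild-type C57BL/6J mice, an inbred laboratory strain, taken on day 9 after birth. The samples are called hearts 1, 2 and 3 after the replicate numbers of the labels and form the only group; the labels name no treatment, transgene or second genotype. Nothing in the labels says whether they came from separate animals, so every p-value here speaks for the variation among these 3 samples, part of which may be technical. The question was whether Ctgf and Cyr61 follow their regulators between hearts. The members were chosen by symbol with their measured TPM levels and their spread between hearts in view, so both are given for them as a description, and no support is drawn from a test of either.

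In the Hippo pathway, the kinases Stk3 and Stk4 with their partner Sav1 activate Lats1 and Lats2, which phosphorylate YAP (encoded by Yap1) and TAZ (encoded by Wwtr1) and keep them in the cytoplasm. Unphosphorylated YAP and TAZ enter the nucleus, bind TEAD factors and switch on genes such as Ctgf and Cyr61, whereas Vgll4 competes for the same TEAD surface. In the newborn heart the pathway is known as a brake on the division of cardiomyocytes. Much of this regulation acts on phosphorylation and location of the proteins, which RNA levels do not measure. Ctgf and Cyr61 encode secreted matricellular proteins of the CCN family and are also known as genes induced rapidly by serum and stretch.

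Total counts per heart were 17766501, 18643408 and 18768094. No pair of hearts agreed within sampling noise (chi-square per degree of freedom of 10.6 to 25.4), so each heart counted as 1 sample. Cardiomyocyte markers were high in every heart, with a summed level of 95773 to 99949 TPM over 10 genes (TPM is abundance per gene length, with a total of 1000000 per heart). Heart 1 stood apart in genes of airway secretory cells: the 10 genes of the lung and airway list summed to 2383 TPM in heart 1, 4.04 in heart 2 and 11.8 in heart 3. Nearly all of the sum came from the secretoglobin genes Scgb1a1, Scgb3a1 and Scgb3a2, at 1202, 758 and 411 TPM in heart 1, and the other 7 genes were at 0.489 to 4.95 TPM there. Only 1 of these 10 genes was at 1 CPM (counts per 1000000) or more in every heart. All 10 members had whole-number counts in every heart, whereas some other genes had fractional ones, which can arise when reads are divided between genes. The start of Ctgf overlaps a long noncoding gene, Gm15270, the start of Lats1 overlaps Pcmt1, and Wwtr1, Lats2 and Vgll4 overlap further annotated genes. The strand setting of the counting is not given in the sources used here, so reads in those overlaps cannot be assigned by strand.

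TEAD factors bind a short core, GGAATG or its reverse complement CATTCC, and the stretch before the Cyr61 start is shown because Cyr61 differed most between hearts among the 10 genes. The 250 bases before the start hold 1 core, in capitals, at positions -103 to -98 counted from the start site (chr3:145649986-145650235, minus strand, GRCm38.p6, RefSeq).
Cyr61: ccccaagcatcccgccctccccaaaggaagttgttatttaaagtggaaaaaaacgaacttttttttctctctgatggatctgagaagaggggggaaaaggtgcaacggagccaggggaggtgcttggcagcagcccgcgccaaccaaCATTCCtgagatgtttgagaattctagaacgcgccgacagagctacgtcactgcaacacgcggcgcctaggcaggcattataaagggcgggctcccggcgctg

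The same core lies before annotated start sites of regulator genes, shown as 30-base stretches so that the surroundings can be compared. All 3 are on the minus strand of GRCm38.p6, at chr9:8004720-8004749, chr3:57576029-57576058 and chr6:114969268-114969297, in that order. The Vgll4 stretch lies inside the span of the gene (chr6:114860621-114970007), before a start site within it.
Yap1: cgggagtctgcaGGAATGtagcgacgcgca
Wwtr1: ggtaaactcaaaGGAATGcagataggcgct
Vgll4: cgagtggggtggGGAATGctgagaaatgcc

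Promoter windows were matched by gene ID for 7 of the 10 members (not Ctgf, Tead1 or Tead4), and 5 of the 7 held a core on either strand: Cyr61, Yap1, Wwtr1, Vgll4 and Tead3. Among all 27025 genes with a window, 14.4% held it in at least 1 window of that length. Lats1 and Lats2 had no match in these windows. A CArG box, the site of serum response factor, was searched in the same windows by its standard pattern. It was not matched in any window of the 7 members. It was found in 1.62% of all genes. These matches are letters in a window and were not tested for binding.

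The coactivators were among the more abundant members and differed little between hearts. Wwtr1 (Entrez gene ID 97064, chr3:57455644-57575910, minus strand), which encodes TAZ, was at 63.8 TPM in heart 1, 75.5 in heart 2 and 67.5 in heart 3, a mean of 68.9 ± 5.98 TPM (SD, n = 3 for all levels). Yap1 (ID 22601, chr9:7931999-8004638, minus strand), which encodes YAP, was at 58.3, 60.9 and 57.0 TPM in hearts 1, 2 and 3, a mean of 58.7 ± 1.99. The ranges of these genes did not overlap, with Wwtr1 above Yap1 in 3 of 3 hearts by a log2 ratio of 0.23 ± 0.092. No test was made of ratios, since with 3 hearts the smallest p of an exact two-sided sign-flip test is 0.25. In bulk tissue, fewer cells of a type and less RNA per cell cannot be told apart, and this holds for every level here.

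Among the TEAD factors, Tead1 (ID 21676, chr7:112679356-112906784, plus strand) was highest at 53.9, 64.8 and 54.8 TPM in hearts 1, 2 and 3. Its mean was 57.8 ± 6.03 TPM, and its range overlapped that of Yap1. Tead3 (ID 21678, chr17:28331671-28350805, minus strand) was at 31.3, 22.8 and 22.0 TPM, with heart 1 above the other hearts. Tead4 (ID 21679, chr6:128227143-128300813, minus strand) was the lowest of the 10 members at 2.99, 3.58 and 3.42 TPM, from 81 to 100 counts per heart. Tead1 exceeded Tead3 by a log2 ratio of 1.202 ± 0.37 and Tead4 by 4.12 ± 0.10, each in 3 of 3 hearts. Tead2, the paralog outside the chosen members, was at 49.0, 37.0 and 36.1 TPM, between Tead1 and Tead3, and like Tead3 was highest in heart 1. Tead1 gave 39.3%, 50.5% and 47.1% of the summed TPM of Tead1 to Tead4 in hearts 1, 2 and 3. The summed TEAD level, 127 ± 10.5 TPM, was close to the sum of Yap1 and Wwtr1, 128 ± 7.65 TPM, and their ranges overlapped.

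Of the LATS kinase genes, Lats2 was close to Tead3 and Lats1 lay between Tead3 and Tead4. Lats2 (ID 50523, chr14:57689662-57746212, minus strand) was at 24.7, 28.3 and 25.0 TPM in hearts 1, 2 and 3, and Lats1 (ID 16798, chr10:7681200-7716461, plus strand) was at 10.5, 12.04 and 11.1 TPM. Lats2 exceeded Lats1 in 3 of 3 hearts by a log2 ratio of 1.22 ± 0.033, the steadiest of the 12 gene ratios computed. Vgll4 (ID 232334, chr6:114860621-114970007, minus strand), the TEAD-bound repressor, was at 37.1, 35.2 and 31.9 TPM. It was below Tead1 by a log2 ratio of -0.73 ± 0.18 and below Yap1 by -0.76 ± 0.097, in 3 of 3 hearts each.

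The target genes, Ctgf and Cyr61, differed more between hearts than any of the 8 regulators. Ctgf (ID 14219, chr10:24595442-24598683, plus strand) was at 38.5 TPM in heart 1, 77.7 in heart 2 and 110 in heart 3, from 809, 1678 and 2482 counts. Cyr61 (ID 16007, chr3:145646971-145649985, minus strand) was at 21.1, 35.2 and 73.6 TPM, from 372, 637 and 1391 counts. Both were lowest in heart 1 and highest in heart 3. Their means were 75.4 ± 35.8 and 43.3 ± 27.2 TPM, and Ctgf exceeded Cyr61 in 3 of 3 hearts by a log2 ratio of 0.86 ± 0.28.

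By mean level the order was Ctgf, Wwtr1, Yap1, Tead1, Cyr61, Vgll4, Lats2, Tead3, Lats1 and Tead4. Neighbours in this order whose ranges over hearts did not overlap were Wwtr1 and Yap1, Vgll4 and Lats2, Tead3 and Lats1, and Lats1 and Tead4. The other neighbours overlapped. The places of Ctgf and Cyr61 depended on the heart: Ctgf was below Yap1 in heart 1 by a log2 ratio of -0.60 and above it in hearts 2 and 3 by 0.35 and 0.95. Cyr61 was below Yap1 in hearts 1 and 2 by -1.46 and -0.79 and above it in heart 3 by 0.37. The mean log2 ratio of Ctgf over Yap1 was 0.23 ± 0.78, smaller than its spread over hearts, and turned to -0.57 without the correction for gene length.

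**Figure D1:**
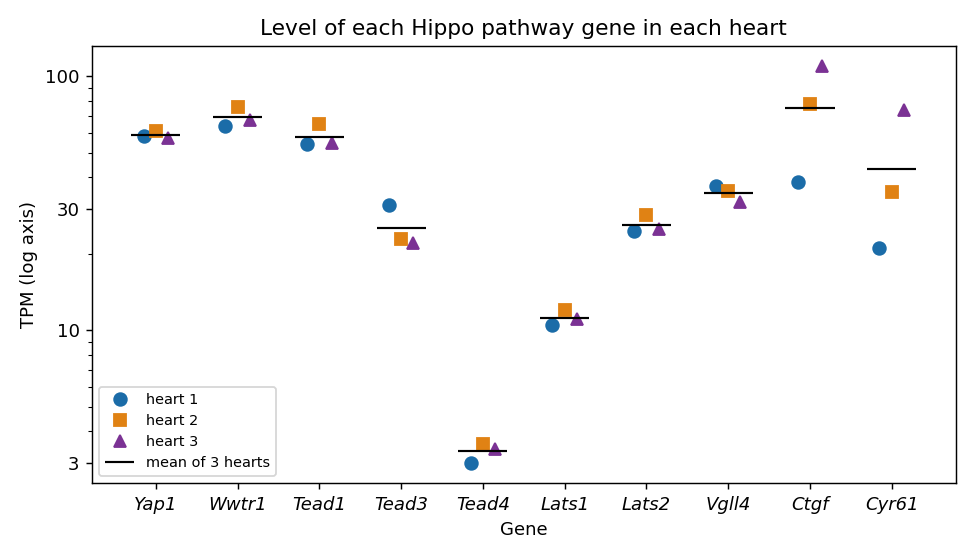
TPM on a log axis of the 10 members in each heart (circle, heart 1; square, heart 2; triangle, heart 3), with a bar at the mean of 3 hearts. The points of the 8 regulators lie close together, while Ctgf runs from 38.5 to 110 TPM and Cyr61 from 21.1 to 73.6 TPM.

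To compare hearts within a gene, counts were scaled to CPM with TMM library scaling and set against the gene's own mean on the log2 scale. Ctgf lay at -0.86 in heart 1, 0.14 in heart 2 and 0.72 in heart 3. Cyr61 lay at -0.86, -0.13 and 1.00. The highest heart exceeded the lowest 2.99-fold for Ctgf and 3.64-fold for Cyr61, against a median of 1.17-fold over the 12958 genes tested. The 8 regulators spanned 1.04-fold (Yap1) to 1.35-fold (Tead3), and 0 of the 8 had heart 1 lowest and heart 3 highest, an order found in 21.4% of all tested genes.

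Wwtr1, Tead1, Lats1 and Lats2 were lowest in heart 1 and highest in heart 2, at 0.09 to 0.14 above their means on the log2 scale. Tead4 was also lowest in heart 1 and nearly equal in hearts 2 and 3. Yap1 stayed within 0.03 of its mean in every heart. Tead3 and Vgll4 were highest in heart 1, at 0.29 and 0.09 above their means, where both targets were lowest. A correlation across hearts is not given, since 3 samples are too few for one. Leaving out heart 3, Ctgf differed 2.01-fold between hearts 1 and 2 and Cyr61 1.66-fold, against 1.35-fold for Tead3.

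**Figure D2:**
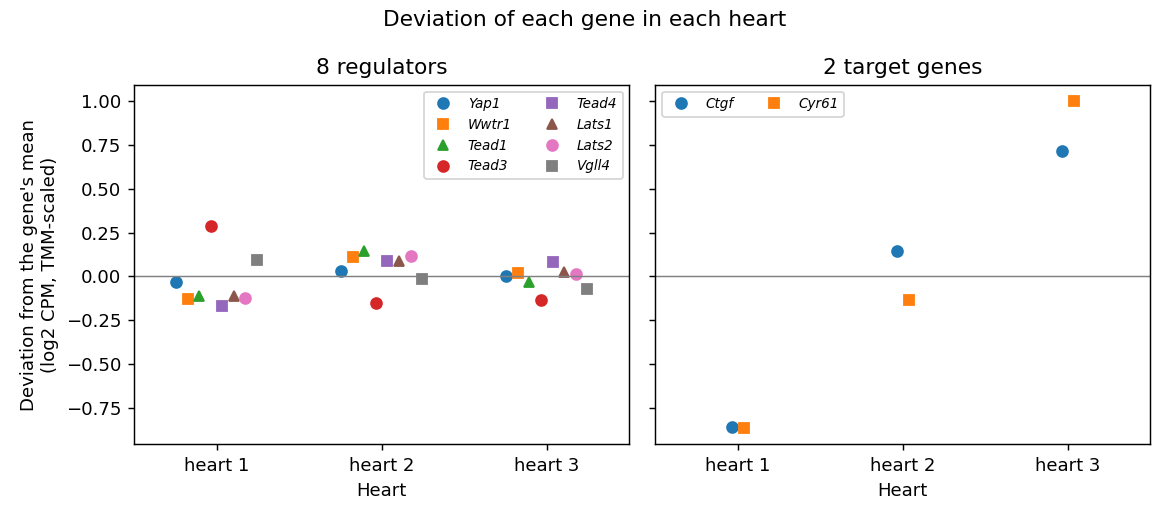
Deviation of each gene from its own mean in log2 CPM (TMM-scaled) by heart, with the 8 regulators on the left and Ctgf and Cyr61 on the right. The regulators lie between -0.17 and 0.29, and the targets run from -0.86 to 1.00.

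A goodness of fit test in edgeR was run for every gene. It asks whether a gene varied between hearts more than genes of like abundance, with Benjamini-Hochberg adjustment over all genes tested and a threshold of 0.05. It was passed by 1.67% of the 12958 genes, and by 2 of the 10 members, Ctgf and Cyr61. The members were chosen with this spread known, so nothing is read from that count. Ctgf passed with any 1 heart left out. Cyr61 passed without heart 1 or heart 2, but not without heart 3 (edgeR adjusted p = 0.253). An unadjusted p under 0.05 was found for 6.18% of all tested genes, the share against which such counts below are to be read.

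The rest of the pathway was described from lists of other genes. These lists were also chosen with earlier results of these data known, so their counts are a description. In the core cassette and its paralogs, 0 of 8 tested genes passed, against 1.67% of all tested genes. An unadjusted p under 0.05 was found for 1 of 8, Mob1b, against 6.18% of all genes. The median was 1.16-fold between the lowest and highest heart. Nf2, the membrane-linked activator of the cassette, was at 70.7 ± 3.19 TPM, the scaffold Sav1 at 51.3 ± 1.78, and the kinases Stk3 and Stk4 at 18.4 ± 0.481 and 15.6 ± 0.351. The LATS partners Mob1a and Mob1b were at 29.3 ± 2.57 and 11.7 ± 3.17 TPM. Mob1b had 230, 414 and 377 counts in hearts 1, 2 and 3 and did not pass (1.74-fold, edgeR adjusted p = 0.269). Of the Vgll4 paralogs, Vgll3 was at 3.30 ± 0.413 TPM, and Vgll1 and Vgll2 had 0 counts in hearts 1 and 3 and 1 and 2 counts in heart 2.

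Among upstream regulators and binders of YAP and TAZ, 0 of 20 passed the edgeR test, against 1.67% of all tested genes. In addition, 0 of 20 had an unadjusted p under 0.05, against 6.18% of all genes. Their median was also 1.16-fold. The most abundant were the kinase gene Map4k4 at 97.7 ± 8.96 TPM, the striatin gene Strn3 at 66.8 ± 6.12, the LATS-related kinase gene Stk38 at 64.0 ± 3.47 and Taok2, another upstream kinase gene, at 46.4 ± 1.56 TPM.

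Of 21 tested genes known as YAP, TAZ and TEAD targets elsewhere, 2 passed, against 1.67% of all tested genes. Both were lowest in heart 1 and highest in heart 3. Of all 216 genes that passed, 86 had that order, which is 0.664% of all tested genes. Ankrd1, which encodes a stretch-responsive cardiac ankyrin repeat protein, was at 500 TPM in heart 1, 793 in heart 2 and 1129 in heart 3 (2.36-fold, edgeR adjusted p = 8.91e-05). The call did not hold without heart 1 (1.496-fold, edgeR adjusted p = 0.0969). It did not hold without heart 3 either (1.58-fold, edgeR adjusted p = 0.161). Thbs1, which encodes the matrix protein thrombospondin, was at 9.01, 24.3 and 27.0 TPM (3.13-fold, edgeR adjusted p = 3.09e-10). Its difference lay between heart 1 and the others, and without heart 1 it was 1.17-fold (edgeR adjusted p = 1.00).

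Ankrd1 is the only gene of this list with a call and a promoter window, and its 250 bases held 2 TEAD cores, shown in capitals with their surroundings for comparison with Cyr61. They lie at positions -210 to -205 and -123 to -118 from the start site (chr19:36120037-36120066 and chr19:36119950-36119979, minus strand, GRCm38.p6, RefSeq). Of the 14 genes of the list with a window, 4 held a core, and the other 3 (Amotl2, Axl and Crim1) did not pass the test.
Ankrd1, distal: gtcactgccaaaGGAATGaccctctcacat
Ankrd1, proximal: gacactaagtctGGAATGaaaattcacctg

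The other 19 tested targets did not pass. Their list as a whole, with Ankrd1 and Thbs1, had a median of 1.27-fold, against 1.17-fold for all tested genes. Ccdc80, a matrix gene, was at 110 ± 9.63 TPM, the receptor gene Axl at 74.2 ± 4.18 and Arhgap29 at 62.9 ± 6.41, with 1.14-fold, 1.17-fold and 1.22-fold between hearts. Amotl2, whose product binds YAP, was at 42.3 ± 3.23 TPM (1.21-fold).

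Of the other CCN family genes, 1 of 3 tested passed, against 1.67% of all tested genes. Nov was at 23.0, 37.9 and 39.0 TPM (1.77-fold, edgeR adjusted p = 0.0487), and its call was lost under each of the 8 alternatives run, with edgeR adjusted p from 0.0504 to 1.00. Wisp1 went the other way with 29.2, 24.8 and 16.9 TPM and did not pass (edgeR adjusted p = 0.160). Wisp2 was at 2.58 ± 0.391 TPM, and Wisp3 had 3, 5 and 2 counts.

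**Figure D3:**
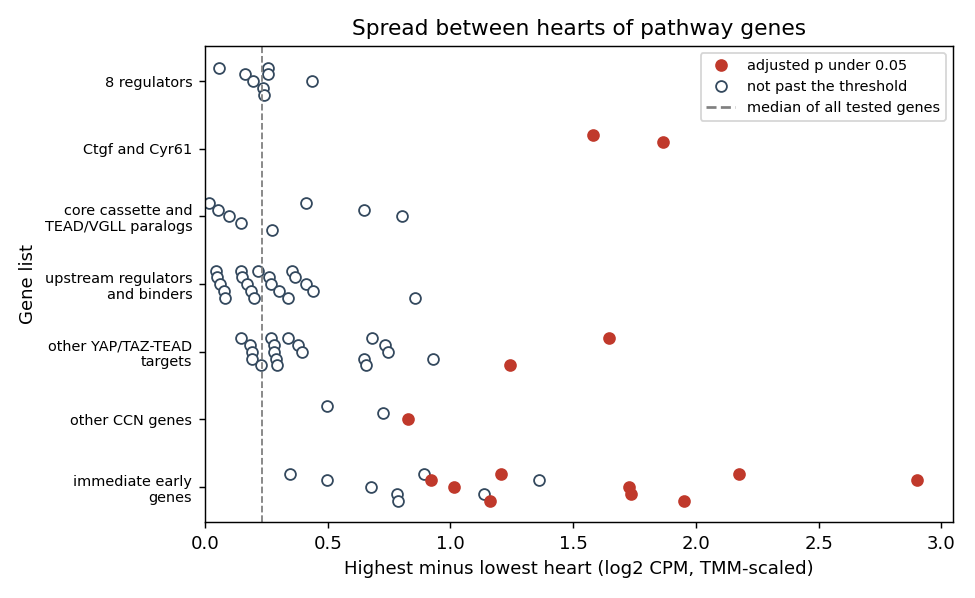
Highest minus lowest heart in log2 CPM (TMM-scaled) for each tested gene of the pathway lists and of the immediate early list; red points passed the edgeR test and the dashed line is the median of all tested genes, 0.23. The 8 regulators lie at 0.06 to 0.44, Ctgf and Cyr61 at 1.58 and 1.86, among values of the immediate early genes.

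Immediate early genes, which are transcribed within minutes of a stimulus, had the same order of hearts. This list, like the other gene lists, was chosen with earlier results of these data known, so its counts and p-values are a description. Of 17 tested, 9 passed the edgeR test, against 1.67% of all tested genes. All 9 had heart 1 lowest and heart 3 highest, as had 86 of all 216 genes that passed (0.664% of all tested genes). With or without a call, 16 of 17 had that order, against 21.4% of all tested genes. An unadjusted p under 0.05 was found for 15 of 17, against 6.18%. Nr4a1, a nuclear receptor gene, was at 8.19, 15.9 and 60.3 TPM (7.48-fold, edgeR adjusted p = 2.82e-32). Dusp1, a phosphatase that ends kinase signals, was at 36.6, 81.4 and 135 TPM (3.87-fold, edgeR adjusted p = 1.35e-14). The transcription factor genes Egr1 and Fos went from 24.2 to 76.6 and from 4.13 to 17.9 TPM. The others that passed were Jun, Junb, Egr3, Klf2 and Btg2. The summed list was at 380, 532 and 843 TPM in hearts 1, 2 and 3, beside 59.6, 113 and 184 TPM for the sum of Ctgf and Cyr61. The count of passing genes was 7 without heart 1, 7 without heart 2 and 1 (Dusp1) without heart 3.

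The 3 genes whose deviations over the 3 hearts were nearest to those of Cyr61, among 12957 compared, were Egr3, Cd79b and Egr1 (root mean square difference of 0.053 to 0.056 on the log2 scale). For Ctgf they were Efhd1, Mycn and Tuba8 (0.0084 to 0.027). Each target was nearer to the other (0.23) than to any regulator, the nearest regulator being Tead4 at 0.54 from Ctgf and 0.68 from Cyr61. This follows from the small spread of the regulators, since the measure includes the size of the deviations. Ankrd1 and Thbs1 were nearer to Ctgf (0.16 and 0.18) than Cyr61 was, but farther from Cyr61 (0.28 and 0.39) than Ctgf was. With 3 points per gene, nothing is drawn from these names.

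Markers of other cells were set beside the targets. Summed levels in hearts 1, 2 and 3 were 3935, 4022 and 4066 TPM for 8 endothelial genes. For 8 fibroblast genes they were 4146, 4371 and 4431 TPM. Both sums had the order of the targets, and 0 of 8 passed in each list, against 1.67% of all tested genes. None of the 10 cardiomyocyte or 7 macrophage markers passed the edgeR test either. An unadjusted p under 0.05 was found for 0 of 10 cardiomyocyte, 0 of 8 fibroblast, 1 of 8 endothelial and 1 of 7 macrophage markers. It was found for 3 of 8 smooth muscle and pericyte, 4 of 6 epicardial and mesothelial and 5 of 5 erythroid markers, against 6.18% of all genes. Smooth muscle and pericyte markers summed to 793, 1371 and 1645 TPM. The edgeR test was passed by 2 of 8, against 1.67% of all tested genes. They were Acta2 (303, 670 and 918 TPM) and Tagln (62.8, 78.2 and 108 TPM). Acta2 and the pericyte gene Rgs5 (267, 444 and 433 TPM) made up most of the sum. Rgs5 was close in hearts 2 and 3, lower in heart 3 by TPM but higher there by TMM-scaled CPM. The pericyte genes Pdgfrb and Cspg4 differed 1.19-fold and 1.05-fold between hearts. The call of Acta2 was lost without heart 1, and that of Tagln without any 1 of the hearts. The smooth muscle myosin gene Myh11 was at 24.3, 25.2 and 29.8 TPM and did not pass.

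The epicardial and mesothelial, macrophage and erythroid sums had other orders of hearts. Epicardial and mesothelial markers summed to 208, 146 and 115 TPM. Of these, 3 of 6 passed, against 1.67% of all tested genes: Krt19, Msln and Upk3b, each highest in heart 1. This count was 0 without heart 1, 1 without heart 2 and 0 without heart 3. The others did not pass and had no common order. Upk1b was also highest in heart 1 (17.5, 14.1 and 9.34 TPM). Wt1 went the other way, with the order of the targets (15.2, 16.9 and 17.6 TPM), and Tbx18 was highest in heart 2 (10.9, 11.2 and 8.25 TPM). Macrophage markers summed to 375, 299 and 321 TPM. Erythroid markers summed to 9775, 10612 and 6328 TPM. Of these, 2 of 5 passed, against 1.67% of all tested genes: Hbb-bt and Alas2, each lowest in heart 3. The erythroid count was 3 without heart 1 and 0 without heart 2 or heart 3. The part of the airway genes of heart 1, of the smooth muscle and epicardial markers and of the immediate early genes in the differences of Ctgf and Cyr61 was not tested. Without heart 1, the heart with the airway genes, Ctgf differed 1.49-fold and Cyr61 2.19-fold between hearts 2 and 3.

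**Figure D4:**
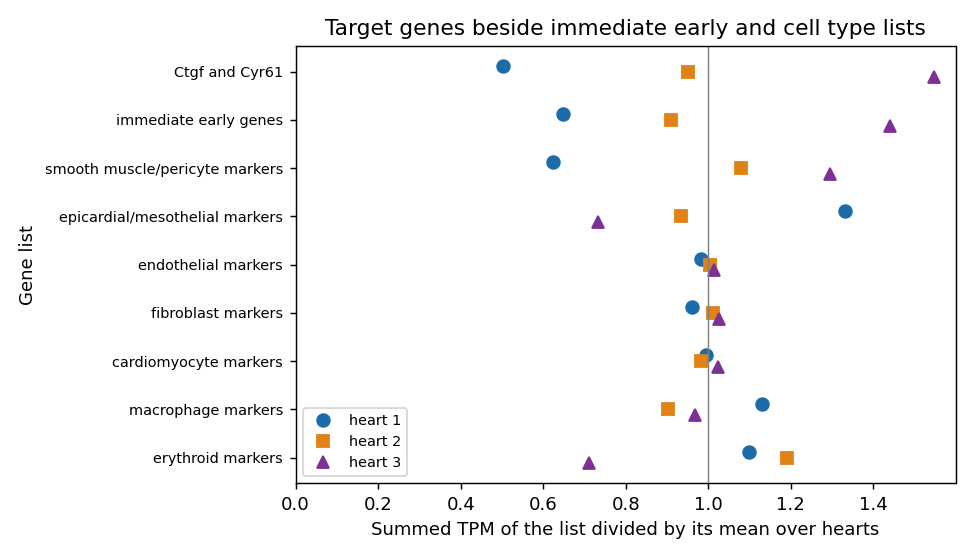
Summed TPM of Ctgf and Cyr61 and of 8 gene lists in each heart, divided by the mean of the 3 hearts, so that 1 is the list's own mean. The sums of the immediate early genes and of the smooth muscle and pericyte markers (mostly Acta2 and Rgs5) share the order of the targets. The epicardial and mesothelial sum has the reverse order, though Wt1 and Tbx18 in it do not. The endothelial and fibroblast sums also have the order of the targets, but they and the cardiomyocyte sum lie near 1 in every heart.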

How the data were processed

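The authors deposited 1 table with read counts and FPKM per gene and heart, per the file headers. About 87.5% of the deposited counts were within 0.005 of a whole number and the rest fractional, so the deposited values were treated like expected counts and rounded for edgeR. The submitters' processing notes name HISAT and GRCm38.p6. For the counting tool, annotation and strand use, nothing is given in the sources used here. The 2 columns of the authors' means and 1 line without values were not used.

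TPM is the FPKM deposited by the authors, rescaled to 1000000 per heart. Precision is limited by 3 samples and by 17766501 to 18768094 counts per heart. The spread between hearts was tested with edgeR 4.0.16 (R 4.3.3): TMM scaling, an intercept-only negative binomial fit with trended dispersion, and the deviance against chi-square with 2 degrees of freedom, over genes at 1 CPM or more in every heart. In simulated counts of 12958 genes, 67 of 100 genes changed 2-fold in 1 heart, 98 of 100 changed 3-fold and 6 of 12758 unchanged genes were called. The counts were drawn with the trended dispersion fitted to these hearts, so these figures are no error rate for the real genes. Because all samples form 1 group, no contrast between groups was fitted.

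Positions are those of the RefSeq table of GRCm38.p6 and strands those of GENCODE M21, since the strand in the deposited table differed for 5 of the 10 members. Among all 17373 genes with a GENCODE strand, it differed for 2600. Promoter windows are from RefSeq (GRCm38.p6). The members, gene lists and tests were chosen with earlier results of these data known. Named genes are the 10 members, the core cassette list, up to 4 genes with the highest TPM and the genes past the test of each other list, and the 3 genes nearest to each target. Mention of Amotl2, Myh11, Cspg4, Upk1b and Tbx18 was decided after their values were seen. Alternatives were other library scaling (DESeq2 1.42.0 size factors, library totals), other filters, a common dispersion, other gene lengths and leaving out each heart.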

Additional observations from a re-analysis of the deposited data

How the results depend on the processing

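The count of genes called variable was 216, and between 185 and 264 under other scaling, filters and a common dispersion. With 1 heart left out it ranged from 80 to 112, with fewer samples in the test. The gap between the smaller log2 range of the targets and the largest of the regulators was 1.14, and 0.29 to 1.15 with 1 heart left out, lowest without heart 3. No paired analysis was possible because all hearts form 1 group.

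Gene ratios depend on the lengths used. Without a length correction the log2 ratios were 0.43 for Wwtr1 over Yap1, 3.14 for Tead1 over Tead3, 5.78 for Tead1 over Tead4, 0.70 for Lats2 over Lats1, -3.10 for Vgll4 over Tead1, -1.90 for Vgll4 over Yap1, -1.69 for Cyr61 over Yap1 and -2.12 for Cyr61 over Wwtr1. With longest transcript lengths they were 0.60, 1.60, 1.17, -0.92 and -0.635 for Wwtr1 over Yap1, Tead1 over Tead3, Lats2 over Lats1, Vgll4 over Tead1 and Vgll4 over Yap1, and 2.48 for Tead3 over Tead4. All of these kept their direction. Ctgf over Yap1, 0.23, turned to -0.57 without a length correction and ranged from -0.12 to 0.65 with 1 heart left out. Ctgf over Wwtr1, 0.006, turned to -1.004 and to -0.088 with longest transcripts, and ranged from -0.34 to 0.37 with 1 heart left out, at -0.012 without heart 2. Without a length correction 7 of the 10 members changed rank.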
